A study of Mus musculus with 9 samples.

Results

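Chromatin marks were examined at 10 genes, out of 21631 protein-coding genes in the RefSeq gene table. They encode enzymes of the pentose phosphate pathway and other enzymes that make NADPH or supply its precursor. The genes were chosen by name, as a list, and every one was found in the table. They are G6pdx, H6pd, Pgls, Pgd, Tkt and Taldo1 of the pentose phosphate pathway, the NADP-dependent isocitrate dehydrogenase genes Idh1 and Idh2, the transhydrogenase gene Nnt and the NAD kinase gene Nadk. A gene was called marked in a library when a region of the deposited list overlapped the annotated gene or the 1 kb beyond either end by 1 bp or more. Gene lengths ran from 4084 to 73731 bases, with a median of 24679, against a median of 17329 over all protein-coding genes, so that the windows were somewhat wider than usual.

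The study used 3T3-L1, an established mouse preadipocyte line, and chromatin immunoprecipitation followed by sequencing (ChIP-seq). Cells in every group received an siRNA: a negative control siRNA (siControl), one against ME1 (siME1) or one against ME2 (siME2). Adipocyte differentiation was induced 2 days after transfection and cells were fixed with 1% formaldehyde 7 days later. Chromatin was precipitated with an antibody to acetylated H3 (AcH3), to acetylated H2B (AcH2B) or to the deacetylase HDAC3, which gave 9 libraries, 1 for each antibody and siRNA. The labels name no animal, clone or second culture, and the level of either malic enzyme after knockdown was not measured in these files. With 1 library per group there is no replicate error and no test across conditions, and every difference below is one between 2 libraries. For the HDAC3 libraries the title and the antibody label differ, since the title has H3, and the antibody label was followed.

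NADPH is the electron donor of fatty acid synthesis and of the glutathione and thioredoxin systems, and fat cells making lipid use much of it. Cytosolic NADPH comes mainly from the oxidative branch of the pentose phosphate pathway, from malic enzyme ME1 and from cytosolic isocitrate dehydrogenase (Idh1). Idh2 and Nnt make NADPH in mitochondria, where ME2 also acts, and H6pd in the endoplasmic reticulum. Acetylation of H3 and H2B tails marks active promoters and enhancers, and HDAC3 removes acetyl groups as part of the NCoR corepressor complex.

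The numbers of fragments behind these values were small. Pileups came in whole steps, which gave fragment counts, and the fragments expected at a base from the depth of the library were 1.76 to 2.44 for the acetylated histone libraries and 1.14 to 1.47 for HDAC3. The lowest summit listed at a background equal to that of the genome had 8 to 11 fragments for the acetylated histones and 5 or 6 for HDAC3. All 8 preadipocyte and fibroblast markers were marked in each of the 6 acetylated histone libraries. Of 8 adipocyte markers, 4, 4 and 5 carried AcH3 and 2, 4 and 4 carried AcH2B, in the order siControl, siME1, siME2, and none of the 6 libraries had a region at Adipoq, Plin1 or Cd36. Of 20 markers of other cell types (leukocyte, endothelial, hepatocyte, neuron and muscle), 2 to 5 were marked in these libraries, none of them a hepatocyte or muscle marker.

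All 10 genes were marked by AcH3 in siControl, 9 in siME1 and 7 in siME2. Over all protein-coding genes the shares were 53.1%, 49.3% and 32.2%. The missing gene in siME1 was Taldo1, and the missing genes in siME2 were Taldo1, Pgd and Nadk. That is 1 of 10 genes no longer listed in siME1, where 11.8% of all genes marked in siControl were no longer listed, and 3 of 10 in siME2, where the share was 43.5%. Taldo1 was the 1 gene of 10 not listed in either knockdown, against 10.5% of all genes marked in siControl. The 7 genes other than Taldo1, Pgd and Nadk were marked in all 3 AcH3 libraries, as were 6343 of the 11492 protein-coding genes with AcH3 in siControl. Over all protein-coding genes, with or without AcH3 in siControl, those 6343 are 29.3%. For AcH2B the control library listed 2 genes, siME1 7 and siME2 6, with 16.6%, 39.7% and 34.7% over all genes in the same order. Tkt and Nnt were marked in all 3 AcH2B libraries, against 14.9% of all genes.

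**Figure D1:**
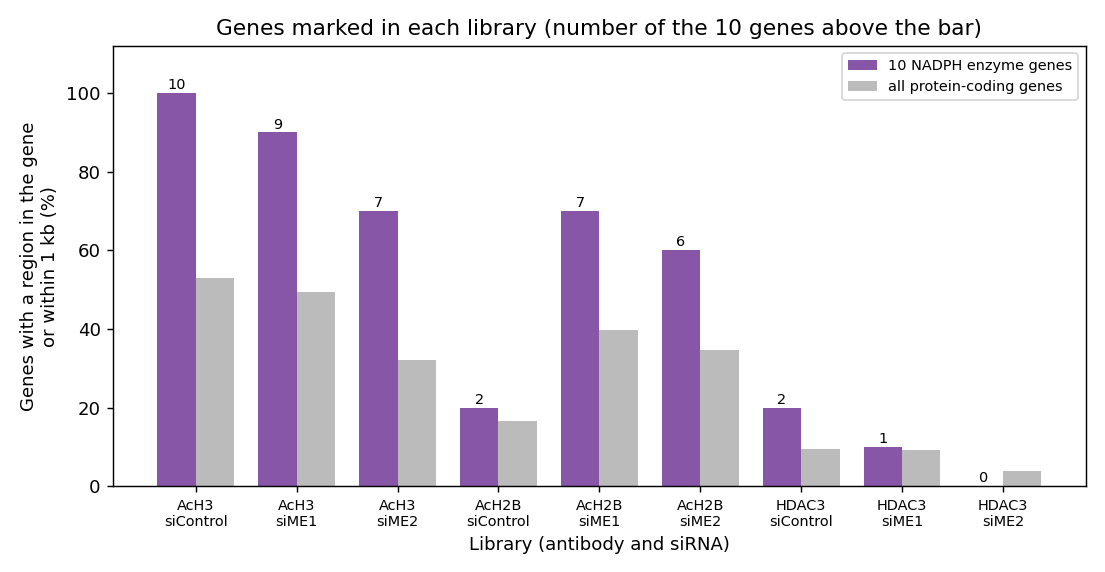
Percentage of genes with a region in the gene or within 1 kb of it, in each of the 9 libraries, for the 10 NADPH enzyme genes (purple, with the number of genes above each bar) and for all protein-coding genes (grey). AcH3 covers 10, 9 and 7 genes in siControl, siME1 and siME2, and AcH2B covers 2, 7 and 6.

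The strongest AcH3 region of each gene also had a lower fold over local background in the knockdown libraries. The median fold over the marked genes, taken at the summit of highest −log10 p, was 10.8 for siControl, 5.79 for siME1 and 5.38 for siME2. Over all marked protein-coding genes it was 9.59, 5.92 and 4.83. Every one of the 9 genes listed in siControl and siME1, and of the 7 listed in siControl and siME2, had the lower fold in the knockdown. The median ratio of the folds was 0.457 in siME1 and 0.436 in siME2, beside 0.613 and 0.465 over 10136 and 6490 protein-coding genes listed in both libraries. Scaled to depth, the medians were 0.471 and 0.5001 at these genes and 0.579 and 0.425 over all genes. In siME2 the median of the 7 genes thus lay below that of all genes by fold and above it by depth. The siME2 median by fold is the ratio at Idh1, whose strongest summits in the 2 libraries lay 8212 bases apart, at different sites. Those of H6pd lay 28903 bases apart. At the Idh1 site listed in both libraries the fold ratio was 0.544. Both knockdown comparisons share the siControl library.

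**Figure D2:**
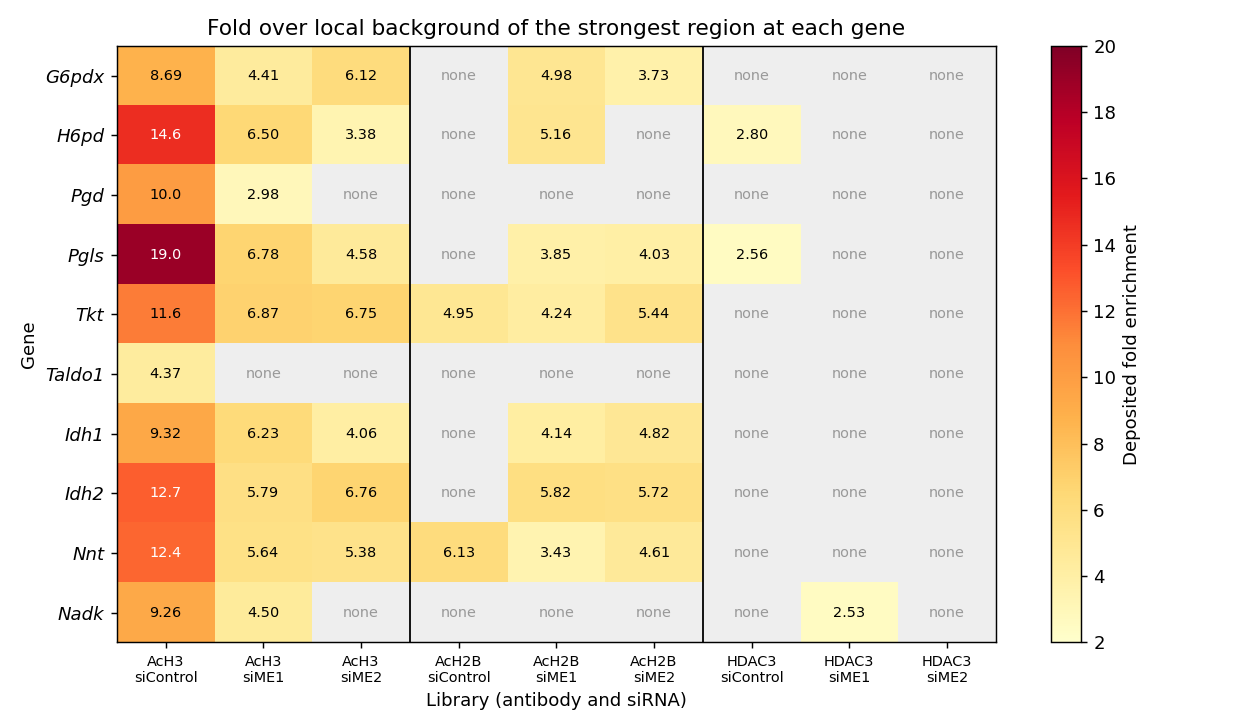
Deposited fold over local background at the strongest summit of each gene (rows) in each library (columns), on a linear colour scale, with grey cells where no region was listed. AcH3 in siControl ranges from 4.37 at Taldo1 to 19.0 at Pgls, and no AcH3 value in a knockdown exceeds 6.87.

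The AcH3 regions were shorter as well. At the 10 genes the listed AcH3 regions covered 19332 bp for siControl, 12252 bp for siME1 and 6011 bp for siME2. The number of regions was 20, 19 and 12, and their median width 722, 465 and 387 bp. In siME1 the covered length was not lower at every gene. It was 2232 bp against 2147 bp in siControl at Tkt, and 1821 bp against 1817 bp at Nnt. Regions in or near all protein-coding genes added up to 18.4, 16.4 and 9.67 Mb, with median widths of 817, 541 and 446 bp. Merged across libraries, the regions of all 9 lists formed 29 separate sites at the 10 genes. AcH3 was listed at 6 of these sites in all 3 siRNA conditions (20.7%), at 8 in siControl alone (27.6%), and at 4 in a knockdown and not in siControl (13.8%). Over the 36751 sites at all protein-coding genes with AcH3 in siControl, the shares were 17.9%, 11.7% and 21.6%. The shares at the 10 genes rest on few sites, some of them close together. Of the 8 sites of siControl alone, 3 were short regions at the start of Taldo1. Another, in H6pd (4, 149980155 to 149980534), lay beside a site listed in both knockdowns alone (4, 149979133 to 149979958).

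The 6 promoter sequences printed here are the 250 bases before the annotated start, 5′ to 3′, from the RefSeq promoter table (GRCm38.p6), which held 9 of the 10 genes and did not hold Nnt. Pgls is shown for the highest AcH3 signal, Pgd, Taldo1 and Nadk because they were not listed in siME2, G6pdx for its antioxidant response element core, and the internal start of Idh1 because AcH3 was listed beside it in all 3 conditions. Capitals mark matches to any of 5 motifs searched on both strands. TGACNNNGC is the core of the antioxidant response element bound by NRF2. GGGCGG is the Sp1 box. The CCAAT box was searched as spelled. CACGTG is the E-box of bHLH factors. TGACGTCA is the cyclic AMP response element.
Pgls (chr8:71591934-71592183, plus strand): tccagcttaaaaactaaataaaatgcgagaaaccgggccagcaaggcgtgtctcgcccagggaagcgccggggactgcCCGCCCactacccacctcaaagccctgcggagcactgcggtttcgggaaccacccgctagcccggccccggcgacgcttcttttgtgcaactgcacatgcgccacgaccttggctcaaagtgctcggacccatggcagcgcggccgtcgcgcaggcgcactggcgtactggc
G6pdx (chrX:74428881-74429130, minus strand): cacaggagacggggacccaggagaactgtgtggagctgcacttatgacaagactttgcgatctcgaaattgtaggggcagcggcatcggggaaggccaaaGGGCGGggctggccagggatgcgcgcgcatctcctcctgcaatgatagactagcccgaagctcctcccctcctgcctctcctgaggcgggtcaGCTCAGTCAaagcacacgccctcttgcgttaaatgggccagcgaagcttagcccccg
Pgd (chr4:149166706-149166955, minus strand): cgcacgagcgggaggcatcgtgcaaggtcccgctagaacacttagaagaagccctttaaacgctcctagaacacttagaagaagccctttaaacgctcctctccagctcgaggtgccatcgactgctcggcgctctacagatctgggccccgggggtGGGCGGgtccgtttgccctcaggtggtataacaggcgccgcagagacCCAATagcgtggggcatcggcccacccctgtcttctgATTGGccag
Taldo1 (chr7:141391910-141392159, plus strand): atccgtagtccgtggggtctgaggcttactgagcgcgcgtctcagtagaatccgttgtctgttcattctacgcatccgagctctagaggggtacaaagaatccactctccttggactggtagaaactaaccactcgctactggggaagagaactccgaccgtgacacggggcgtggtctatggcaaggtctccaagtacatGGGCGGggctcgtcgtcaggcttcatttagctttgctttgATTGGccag
Nadk internal start (chr4:155563565-155563814, plus strand): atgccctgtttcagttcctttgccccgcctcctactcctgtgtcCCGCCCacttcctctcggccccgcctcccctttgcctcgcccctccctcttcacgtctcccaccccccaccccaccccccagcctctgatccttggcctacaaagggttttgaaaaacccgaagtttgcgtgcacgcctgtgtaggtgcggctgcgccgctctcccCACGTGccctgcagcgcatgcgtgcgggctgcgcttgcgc
Idh1 internal start (chr1:65179143-65179392, minus strand): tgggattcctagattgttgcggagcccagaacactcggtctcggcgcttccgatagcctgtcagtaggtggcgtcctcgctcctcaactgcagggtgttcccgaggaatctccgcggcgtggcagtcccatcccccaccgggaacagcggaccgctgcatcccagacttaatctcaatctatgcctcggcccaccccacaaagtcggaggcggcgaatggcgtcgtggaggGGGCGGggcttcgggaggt

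Over the first annotated starts, GGGCGG was found at 7 of 9 genes and CCAAT at 6 of 9, against 32.7% and 33.8% of all 32851 promoters of the same length. All promoters include those without AcH3. They also include further starts of the same gene, whereas only the first start of each of the 9 genes was counted. At the second starts, GGGCGG was found for Idh1 and Nadk and not for Pgd, and CCAAT for none of them. The first starts of H6pd and Nadk, both counted for CCAAT, were not covered by an acetylated region. TGACNNNGC was found at 1 of 9, G6pdx, at positions -57 to -49 from the start, against 10.2% of promoters. CACGTG and TGACGTCA were found at 0 of 9, against 6.02% and 1.55%, and the CACGTG of Nadk lies before its second start. The ATTGG of Pgd and that of Taldo1, the other strand of CCAAT, both lay at positions -9 to -5. At Tkt, matches to GGGCGG on the other strand at -14 to -9 and -9 to -4 overlapped by 1 base. The 9 promoters had a median G and C content of 60.4%, against 52.4% over all promoters, and ranged from 38.8% at H6pd to 67.2% at Idh2. A match describes the letters only.

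The oxidative branch begins with G6pdx, the X-linked gene of glucose-6-phosphate dehydrogenase (X, 74409483 to 74428880, minus strand). An AcH3 site spanned its start (X, 74428240 to 74430170) in all 3 conditions, with 23 fragments at the siControl summit, 23 in siME1 and 18 in siME2. The folds were 8.69, 4.41 and 6.12. The siME1 summit lay on a local background 1.90 times that of the genome, where that of siControl lay at 1.00 times, so the fold in siME1 was lower at the same number of fragments. Scaled to depth, the level at the site was 0.765 times siControl in siME1 (95% interval 0.410 to 1.43) and 0.665 times in siME2 (0.338 to 1.29). Both intervals hold 1, and a difference was not detectable at this depth.

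The siControl summit of highest −log10 p lay 140 bases inside G6pdx, and those of both knockdowns lay upstream, at positions -460 and -398. AcH3 was listed on both sides of the start in siControl and siME1. In siControl, weaker summits lay upstream at -551 and -962, with 16 and 19 fragments. In siME1, a separate region had its summit 200 bases inside the gene, with 12 fragments. AcH2B was not listed at G6pdx in siControl. At the start site it had 18 fragments and a fold of 4.36 in siME1, and 12 fragments and a fold of 3.73 in siME2. From 2766 to 4746 bases inside the gene, 3 sites carried AcH2B in siME1, the strongest with 17 fragments and a fold of 4.98. One of them carried AcH3 in siControl and siME1 and another AcH3 in siME2. The whole of G6pdx lies within the span of Ikbkg, which encodes a regulatory subunit of the NF-kappaB kinase. The RefSeq table puts starts of Ikbkg 435 bases upstream and 4268 bases inside from that of G6pdx, so these regions cannot be assigned to 1 of the 2 genes.

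Pgls encodes the lactonase of the second step (8, 71592184 to 71596267, plus strand) and had the highest AcH3 summit of the 10 genes. Fragments numbered 64 in siControl, 34 in siME1 and 19 in siME2, with folds of 19.0, 6.78 and 4.58. The depth-scaled ratio to siControl was 0.407 in siME1 (0.260 to 0.626) and 0.252 in siME2 (0.143 to 0.427). The region narrowed around the start from 2180 bp in siControl to 1611 bp in siME1, and in siME2 it was listed as 2 regions adding up to 1298 bp. AcH2B, absent from the siControl list, had 20 fragments and a fold of 3.85 in siME1 and 19 fragments and a fold of 4.03 in siME2, on the same site. At this promoter AcH3 was lower, and AcH2B was listed, in both knockdown libraries.

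Pgd encodes 6-phosphogluconate dehydrogenase, the other NADPH-making step of the branch (4, 149149991 to 149166705, minus strand). Its single site covered both annotated starts (4, 149165867 to 149167438). AcH3 had 27 fragments and a fold of 10.04 in siControl, 12 fragments and a fold of 2.98 in siME1, and no region in siME2. The depth-scaled ratio in siME1 was 0.340 (0.157 to 0.694). The siME1 region was 490 bp wide, lay on the downstream part of the siControl region, and was close to the limit of its list, with a −log10 q of 1.49. Neither AcH2B nor HDAC3 was listed at Pgd in any library.

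H6pd makes NADPH in the lumen of the endoplasmic reticulum, where its protein carries out the first steps of the pathway (4, 149979474 to 150009023, minus strand). The promoter table puts its start at 150003236, whereas the strongest AcH3 site lay at the 5′ end of the gene span (4, 150008433 to 150009344). That site had 40 fragments and a fold of 14.6 in siControl and 22 fragments and a fold of 6.50 in siME1, and it was not listed in siME2. The depth-scaled ratio in siME1 was 0.421 (0.238 to 0.725). In siME2 the only AcH3 regions of H6pd lay at the other end of the gene, with at most 13 fragments and a fold of 3.38, so the gene counts as marked without a region at its 5′ end. AcH2B was listed at the 5′ site in siME1 alone, with 18 fragments and a fold of 5.16.

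**Figure D3:**
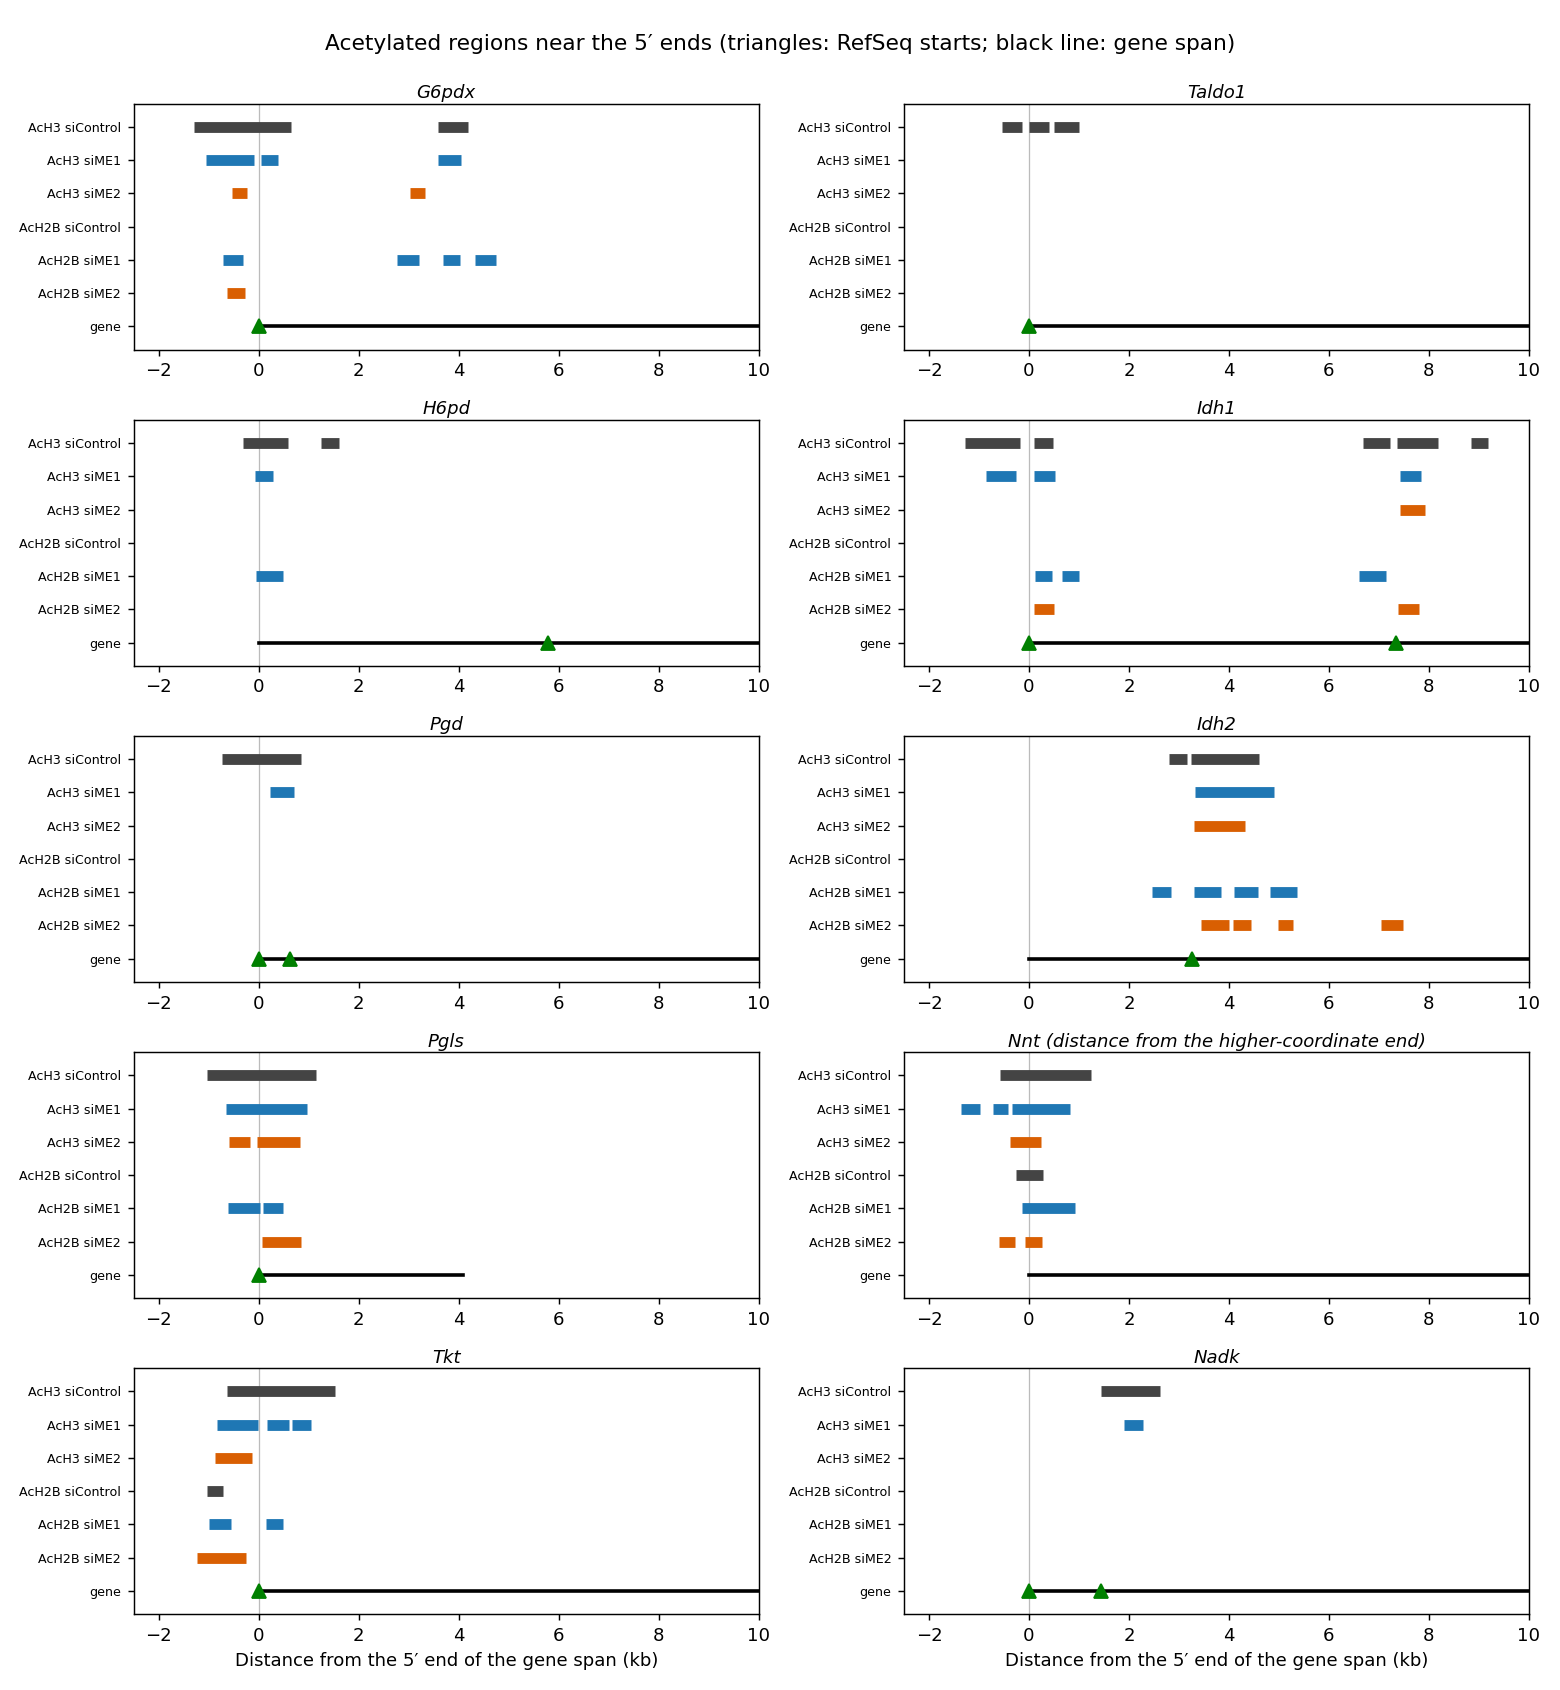
Position of the listed AcH3 and AcH2B regions (bars, 1 row per library) around the 5′ end of each gene span (kb; for Nnt, whose strand is not given, the higher-coordinate end), in grey for siControl, blue for siME1 and orange for siME2. Triangles are RefSeq starts and the black line is the gene. AcH3 bars are widest in siControl at Pgd, Pgls, Tkt and Nadk, Taldo1 has bars in siControl alone, and H6pd has no bar in siME2. At Idh2 the widest AcH3 bar is that of siME1.

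The non-oxidative branch, which exchanges sugar phosphates with glycolysis, is represented by Tkt and Taldo1. Tkt encodes transketolase (14, 30549131 to 30574724, plus strand). Its start site had AcH3 in all conditions, with 33, 25 and 20 fragments and folds of 11.6, 6.87 and 6.75 in siControl, siME1 and siME2. The depth-scaled ratio was 0.580 in siME1 (0.330 to 1.005) and 0.515 in siME2 (0.280 to 0.925). The strongest summit lay 305 bases inside the gene in siControl and upstream of the start after either knockdown (position -306 for siME1, -679 for siME2). The siME2 library listed no AcH3 region downstream of the start within this site.

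AcH2B at Tkt was listed in all conditions, at the start site with 16, 17 and 18 fragments and folds of 4.79, 4.24 and 5.44. An AcH2B region lay upstream of the start in all 3 libraries, on the side where the strongest AcH3 summits of the knockdowns lay. In siME1, AcH3 was also listed downstream of the start, with 18 and 15 fragments, as was AcH2B, with 13. AcH3 in siControl also had an upstream summit, at -391, with 16 fragments. A second site lay about 15.0 to 16.3 kb inside the gene (14, 30564111 to 30565474). AcH2B was listed there with 21, 16 and 17 fragments, and AcH3 with 16 fragments in siME1 and 12 in siME2 and not in siControl. The depth-scaled AcH2B ratios at both sites ran from 0.764 to 1.16 and all intervals held 1.

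Taldo1 encodes transaldolase (7, 141392160 to 141402976, plus strand) and its strongest AcH3 summit in siControl had the lowest −log10 p among the strongest summits of the 10 genes, 8.78. Its 3 short AcH3 regions at the start had 19, 13 and 9 fragments and folds of 4.37, 4.84 and 3.57. The region of 19 fragments lay on a local background 2.03 times that of the genome. No library other than AcH3 siControl had a region at Taldo1. In both AcH3 knockdown libraries the lowest summit listed at genome background had 9 fragments, as many as the weakest of these regions.

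**Figure D4:**
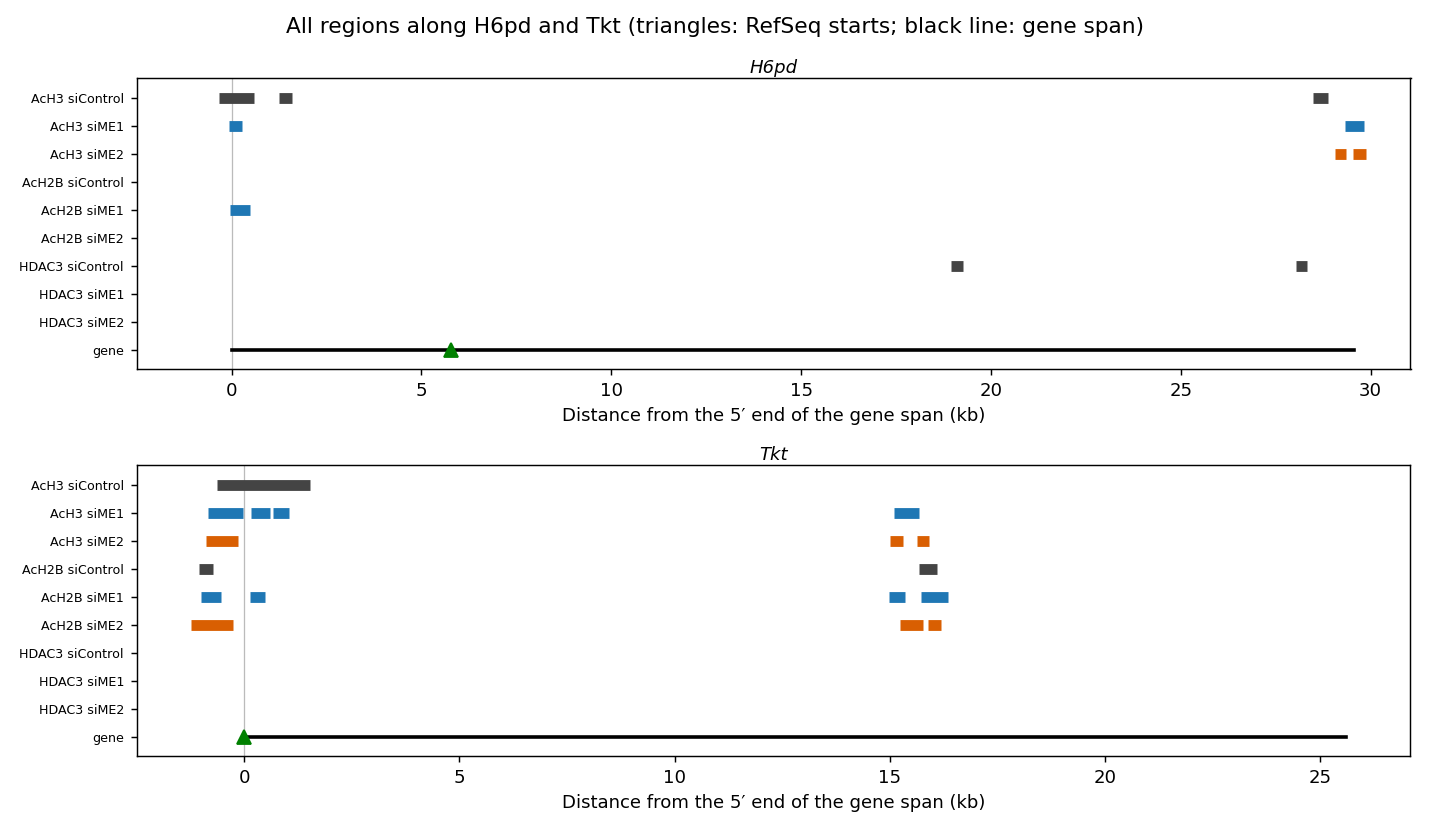
All regions of the 9 libraries along H6pd (top) and Tkt (bottom), by distance from the 5′ end of the gene span in kb. Grey is siControl, blue siME1 and orange siME2, triangles are RefSeq starts and the black line is the gene. H6pd has AcH3 in siME2 at its 3′ end only, and Tkt has a second acetylated site 15.0 to 16.3 kb inside the gene where AcH3 is listed in both knockdowns and not in siControl.

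The isocitrate dehydrogenases make NADPH from isocitrate in the cytosol and peroxisomes (Idh1) and in mitochondria (Idh2). Idh1 (1, 65158616 to 65186479, minus strand) had 2 annotated starts and acetylated sites at both. Upstream of the main start (1, 65186653 to 65187756), AcH3 had 29 fragments and a fold of 9.32 in siControl and 22 fragments and a fold of 4.36 in siME1, and was not listed in siME2. Just inside that start (1, 65185949 to 65186382) it had 18 and 25 fragments in siControl and siME1, folds of 4.15 and 6.23, and again no region in siME2. This second site had a higher fold in siME1 than in siControl, although the depth-scaled ratio was 1.06 (0.557 to 2.07). Beside the internal start (1, 65178300 to 65179128), AcH3 was listed in all conditions, with 22, 17 and 14 fragments and folds of 7.47, 3.85 and 4.06.

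AcH2B at Idh1 was listed in the knockdowns and not in siControl. Just inside the main start it had 17 fragments and a fold of 4.14 in siME1 and 21 fragments and a fold of 4.82 in siME2. In siME2 this site therefore carried AcH2B where AcH3 was not listed. The start of Pikfyve, which encodes a phosphoinositide kinase, lies 206 bases upstream of that of Idh1 in the other direction, and the upstream site lies within Pikfyve. The site just inside the main start of Idh1, which holds this AcH2B, also lies within 1 kb of the start of Pikfyve. Neither site can be assigned to 1 of the 2 genes.

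Idh2 (7, 80094845 to 80118608, minus strand) had its strongest regions on 1 site just inside its RefSeq start (7, 80113255 to 80115372). AcH3 had 34, 20 and 20 fragments in siControl, siME1 and siME2 and folds of 12.7, 5.79 and 6.76. The depth-scaled ratios were 0.450 (0.246 to 0.805) and 0.5001 (0.273 to 0.894). AcH2B was not listed there in siControl and had 21 fragments and a fold of 5.82 in siME1 and 19 fragments and a fold of 5.72 in siME2. These are the highest AcH2B folds of the knockdown libraries at the 10 genes.

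Nnt encodes the proton-driven transhydrogenase of the inner mitochondrial membrane, which makes NADPH from NADH (13, 119335527 to 119409257). Its regions lay at the higher-coordinate end of the gene (13, 119408018 to 119409973 for the main site), where AcH3 and AcH2B were listed in all 6 libraries. AcH3 had 34, 42 and 20 fragments in siControl, siME1 and siME2, and folds of 12.4, 5.64 and 5.38. The siME1 summit held the most fragments, and its fold was 0.454 times that of siControl. The local background was 2.84 times that of the genome at that summit and 1.03 times in siControl. Scaled to depth, the ratio was 0.945 in siME1 (0.587 to 1.53) and 0.5001 in siME2 (0.273 to 0.894). AcH2B had 21, 19 and 19 fragments and folds of 6.13, 3.43 and 4.61, with depth-scaled ratios of 0.907 and 0.931 whose intervals hold 1. Over all protein-coding genes listed in both AcH2B libraries the level was lower in 11.3% of genes in siME1 and 28.1% in siME2. The gene table gives no strand for Nnt.

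Nadk phosphorylates NAD to NADP, the precursor of NADPH (4, 155562381 to 155591001, plus strand). Its AcH3 region in siControl lay just downstream of the second of 2 annotated starts (4, 155563828 to 155565008), with the summit 556 bases from it, and no region covered the first start. AcH3 had 26 fragments and a fold of 9.26 in siControl, 16 fragments and a fold of 4.50 in siME1, and no region in siME2. The depth-scaled ratio in siME1 was 0.471 (0.236 to 0.912). AcH2B was not listed at Nadk. Pgd, Taldo1 and Nadk, which had no AcH3 region in siME2, were also the 3 genes of 10 without AcH2B in any library. Among all genes whose AcH3 was no longer listed in siME2, 45.1% had no AcH2B in any library, and among all genes with AcH3 in siControl 23.7% had none. The match of the 3 genes holds at the main setting only. With a −log10 q of at least 5, AcH3 in siME2 was not listed at H6pd and Idh1 either, and both had AcH2B in a knockdown.

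**Figure D5:**
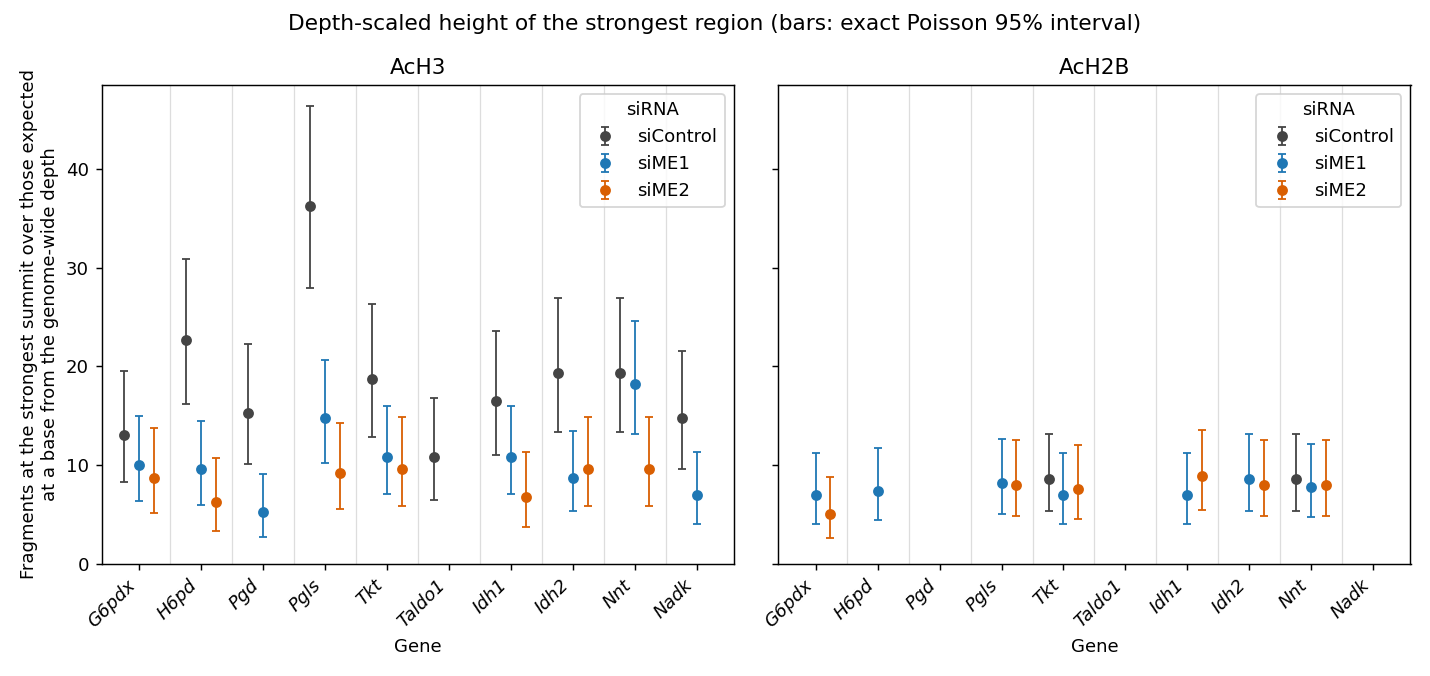
Fragments at the strongest summit of each gene divided by the fragments expected at a base from the depth of the library, for AcH3 (left) and AcH2B (right), with exact Poisson 95% intervals. No point is drawn where no region was listed. AcH3 in siControl ranges from 10.8 at Taldo1 to 36.3 at Pgls, and all AcH2B values lie between 5.05 and 8.85.

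Compared within the same site, AcH3 scaled to depth was lower than in siControl at 10 of 12 sites in siME1 and at 6 of 6 in siME2, and the counting interval lay below 1 at 5 and 4 of them. No interval lay above 1. Over all protein-coding genes listed in both libraries, the depth-scaled level of the strongest region was lower in 94.8% of genes in each knockdown, so a lower level was the usual state of a gene in these libraries. The intervals cover counting error only, and each summit was picked as a maximum.

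AcH2B was listed in siME1 at 5 of the 8 genes without it in siControl (G6pdx, H6pd, Pgls, Idh1 and Idh2) and in siME2 at 4 of 8 (all of these but H6pd). Over all genes without AcH2B in siControl the shares were 28.2% and 23.4%, and the share listed in both knockdowns was 17.3%, against 4 of 8 genes here. All 8 genes had AcH3 in siControl. Among all genes with AcH3 and without AcH2B in siControl, 66.9% had AcH2B in at least 1 knockdown, and the 5 of 8 genes here lie near that share. Of the AcH2B regions at the 10 genes, 13 of 19 in siME1 and 9 of 13 in siME2 overlapped an AcH3 region of siControl, or 68.4% and 69.2%. At all protein-coding genes with AcH3 in siControl, as these 10 have, it was 42.1% and 52.8% of AcH2B regions. Neither gene with AcH2B in siControl, Tkt or Nnt, was without it in a knockdown, where 2.65% and 8.75% of all such genes were. The AcH2B lists were of unequal length, with 20046 regions for siControl, 54649 for siME1 and 32465 for siME2. With equal numbers of regions, or with a −log10 q of at least 5, AcH2B in siME1 was listed at 3 genes in place of 7, and Tkt and Nnt were no longer among them. The share over all genes is not given for these settings.

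HDAC3 regions at these genes were few and weak. H6pd had 2 regions and Pgls 1 in siControl, Nadk had 1 in siME1, and none was listed in siME2, so that 2, 1 and 0 genes were marked, against 9.57%, 9.2% and 3.84% of all genes. Each summit had 5 fragments, with folds of 2.53 to 2.80 and a −log10 q of 0.0, that is, a q of 1. The Pgls region lay on the acetylated start site, at position -674. The H6pd regions lay inside the gene, 13370 and 22459 bases from its RefSeq start. The Nadk region covered the second start, and 6.35% of all genes without HDAC3 in siControl were likewise listed in siME1. The 2 genes with HDAC3 in siControl were not listed in siME1, as for 63.9% of all genes marked in siControl. Nor were they listed in siME2, as for 80.1%. The share of all genes missing from both knockdowns is not given.

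Other genes of NADPH metabolism were read from 4 lists of 37 genes. For AcH3 the control library listed 34 of 37, siME1 30 and siME2 17, against 53.1%, 49.3% and 32.2% of all genes. For AcH2B the numbers were 9, 18 and 19, against 16.6%, 39.7% and 34.7%. AcH3 was no longer listed in siME2 at 17 of the 34 genes, against 43.5% of all genes with AcH3 in siControl. In the list of further pentose phosphate and ribose genes the AcH3 numbers were 10, 9 and 3 of 12. For isocitrate and aconitate genes they were 5, 5 and 2 of 5. Other makers of NADP and NADPH had 9, 8 and 6 of 10, and users of NADPH 10, 8 and 6 of 10. All 3 subunit genes of the NAD-dependent isocitrate dehydrogenase, Idh3a, Idh3b and Idh3g, had AcH3 in siControl (folds of 9.498, 9.39 and 9.68) and siME1 (3.11, 5.197 and 6.21). None of them was listed in siME2, as for 43.5% of all genes with AcH3 in siControl. Idh2 was listed in siME2 at its start site, and Idh1 only beside its internal start, with 14 fragments.

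Like Taldo1, 4 of the 34 genes with AcH3 in siControl had it in neither knockdown, against 10.5% of all genes with AcH3 in siControl. They were Rpia, which encodes ribose-5-phosphate isomerase (14 fragments, fold 4.26), Aldh1l2 of mitochondrial folate metabolism (27, 8.39), Cbr1, a carbonyl reductase (18, 5.36), and Nox4, an NADPH oxidase (20, 3.84). Like G6pdx, Pgls, Idh1 and Idh2, 7 of the 28 genes without AcH2B in siControl had it in both knockdowns, against 17.3% of all such genes. That share is over genes with or without AcH3 in siControl, whereas 34 of these 37 genes had AcH3 there. For genes with AcH3 and without AcH2B in siControl, 66.9% had AcH2B in at least 1 knockdown, and the share in both is not given. The 7 genes were Prps2, Idh3b, Me1, Nadk2, Mthfd1, Mthfd2l and Txnrd2. Their AcH2B folds were 4.22 and 4.87 at Prps2 (phosphoribosyl pyrophosphate synthesis), 3.88 and 4.58 at Me1, and 4.13 and 3.27 at the mitochondrial NAD kinase gene Nadk2, in siME1 and siME2. Nadk2 also had AcH3 in all 3 conditions, with folds of 14.4, 8.64 and 5.26, where Nadk had none in siME2.

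HDAC3 was listed at 3, 5 and 2 of the 37 genes, against 9.57%, 9.2% and 3.84% of all genes. The highest summit was at the glutathione reductase gene Gsr, with 10 fragments in siControl (fold 3.94, −log10 q 0.99) and 10 in siME2 (fold 3.90). The others, with 5 to 7 fragments, were Rpia and Txnrd2 in siControl, Tktl2, Me1, Mthfd2l, Aldh1l2 and Por in siME1, and Me3 in siME2.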

How the data were processed

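ChIP-seq values start from 1 deposited list of regions per library. The submitters' processing notes list BWA, MACS2, SAMtools, bedtools and deepTools without versions; parameters were not given in the sources used here. Since the lists carry no header, columns were identified from their values. The deposited pileup at a summit is a coverage signal in whole steps of 1 fragment. The deposited −log10 p and −log10 q are per summit, and lists of acetylated histones end on q and HDAC3 lists on p. The deposited fold, the authors' own ratio, equals pileup plus 1 over local background plus 1.

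The notes name build mm8. Coordinates were read as GRCm38, because 50.1% of siControl AcH3 regions fell within 1 kb of a RefSeq GRCm38.p6 start, against 6.70% after a shift of 50 kb. Each gene was scored at its summit of highest −log10 p. Fragments are pileup over its step, and depth was estimated from the 1st percentile of local backgrounds (Python 3.11.15, pandas 2.3.3, scipy 1.17.1). Depth-scaled ratios carry exact conditional binomial intervals and levels exact Poisson intervals, at 95%, for counting error only. Fragment recovery and overlaps were tested on simulated data. Without replicates no test was made. Genes, lists and rules were chosen with earlier results of these data known. All 10 genes are named, as are other pathway genes with AcH3 in siControl alone, AcH2B in both knockdowns alone, or HDAC3. Idh3a and Idh3g were named after their values were seen. Alternatives were 7 for counts and 2 for ratios.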

Additional observations from a re-analysis of the deposited data

How the results depend on the processing

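The numbers of marked genes depended mainly on the score limit and the length of the lists. Shares over all protein-coding genes are given for the main setting only. Whether the counts below differ from those of genes in general therefore cannot be read from them. With a −log10 q of at least 5, AcH3 was no longer listed at 3 genes in siME1 and 5 in siME2, in place of 1 and 3. AcH2B was then listed at 3 genes in siME1, with 3 gained and 2 lost (Tkt and Nnt), in place of 5 gained and 0 lost, and in siME2 2 were gained in place of 4. With equal numbers of regions per antibody, AcH3 was no longer listed at 2 genes in siME1, and AcH2B in siME1 was again listed at 3 genes, with 3 gained and 2 lost. The AcH2B genes of siME1 were G6pdx, H6pd and Idh2 in both settings. HDAC3 was listed at 0 genes in siControl and 0 in siME1 under a −log10 q of at least 1.3 and under equal numbers. It was listed at 1 gene in siControl within the gene span alone, and at 1 in siControl and 0 in siME1 at gene ends alone. All 17 counts kept within 1.5 times their value with a 5 kb flank, with 50% of the region inside the window and without regions whose background was over 5 times that of the genome.

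Of 20 fold ratios to siControl, none moved beyond its counting interval when the summit of highest fold was used. Scaled to depth, that of AcH3 at Nnt in siME1 was 0.945 in place of 0.454. The AcH2B ratio of Tkt in siME2 was 0.882 in place of 1.10, where the strongest summits lay at different sites. No paired analysis was possible because each group holds 1 library and no result comes from a test. Depth limits these values: the strongest summits held 5 to 64 fragments, and a region not listed is one below the limit of its list, not one shown to be absent.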
